A study of Mus musculus with 15 samples.

Results

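The glutathione S-transferases (GSTs) described here are 9 genes of 5 classes: Gstm1, Gstm2, Gstm4, Gstm5 and Gstm6 of the mu class, Gsta4 of the alpha class, Gstp1 of the pi class, Gsto1 of the omega class and Gstt1 of the theta class. They are 9 of the 19937 genes measured. The group was chosen because Gstm5 differed widely between 2 of the lines, the S42D and S42A lines, so all values of that contrast are given as a description with no test. A gene's level is that of its brightest probe set naming 1 gene, and each of the 9 had 1 such probe set. Mu-class transcripts resemble each other closely, so the probe sets of Gstm1, Gstm2, Gstm4, Gstm5 and Gstm6 may read each other's RNA, which was not tested.

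Expression was read on arrays in 5 lines of 4T1, a metastatic mouse breast carcinoma cell line, with 3 arrays per line. The lines were parental 4T1 cells, a derivative depleted of its own Twist1 (Tw1KD), and 3 lines in which Tw1KD cells received Twist1 as wild-type protein or with the substitution S42A or S42D, here the wild-type, S42A and S42D lines. Twist1 is a basic helix-loop-helix transcription factor, and S42A and S42D put alanine or aspartate in place of serine at residue 42. The method of depletion, the constructs and whether a line is 1 clone are not given in the sources used here. Only the sample titles tell the S42D line apart, since its genotype label reads as both substitutions. For all lines, parental cells included, the labels list DMEM supplemented with puromycin (4 µg/ml) and G418 (800 µg/ml) and harvest at 70% confluency. The labels do not say that the 3 samples of a line were separate cultures, so p-values measure only the spread between these samples. Levels are log2 intensities as deposited, written in the order of replicates 1 to 3. A difference of 1 on this scale is a doubling of intensity.

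GSTs are enzymes that join the tripeptide glutathione to electrophilic compounds, which include lipid peroxidation products, environmental toxins and alkylating drugs. The conjugates are pumped out of the cell by ATP-driven exporters and broken down by peptidases at the cell surface. The cytosolic classes differ in preferred substrates: theta enzymes act on small halogenated compounds, alpha class Gsta4 on 4-hydroxynonenal, and omega enzymes on dehydroascorbate and mixed disulphides. Many GST genes, together with those for glutathione synthesis, carry antioxidant response elements that bind the transcription factor Nrf2, the product of Nfe2l2.

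The promoters are shown for the 3 members whose line means spread most, Gstm5, Gstm1 and Gstt1, and for Gstp1, which shares a motif with Gstm5. Each is RefSeq's 250 bases before the annotated start. Coordinates are those of GRCm38.p6, and each sequence runs 5′ to 3′ on the gene's own strand. It is the reference sequence and was not read from 4T1 cells. Capitals mark 2 motifs, the core of the antioxidant response element (TGACNNNGC) and the AP-1 site (TGANTCA). Gstm5 is shown at chr3:107895604-107895853 on the plus strand, Gstm1 at chr3:108017974-108018223 on the minus strand (1 of its 2 annotated starts), Gstt1 at chr10:75797732-75797981 on the minus strand and Gstp1 at chr19:4037913-4038162 on the minus strand.
Gstm5: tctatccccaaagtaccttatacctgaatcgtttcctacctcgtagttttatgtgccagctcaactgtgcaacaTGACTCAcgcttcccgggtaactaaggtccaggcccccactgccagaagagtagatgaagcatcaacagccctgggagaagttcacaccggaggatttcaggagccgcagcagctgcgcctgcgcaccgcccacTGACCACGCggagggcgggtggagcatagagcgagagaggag
Gstm1: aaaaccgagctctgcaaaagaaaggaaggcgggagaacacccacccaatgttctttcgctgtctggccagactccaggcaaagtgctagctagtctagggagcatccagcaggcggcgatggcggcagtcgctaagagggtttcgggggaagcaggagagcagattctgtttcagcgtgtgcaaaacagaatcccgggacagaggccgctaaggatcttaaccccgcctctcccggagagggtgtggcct
Gstt1: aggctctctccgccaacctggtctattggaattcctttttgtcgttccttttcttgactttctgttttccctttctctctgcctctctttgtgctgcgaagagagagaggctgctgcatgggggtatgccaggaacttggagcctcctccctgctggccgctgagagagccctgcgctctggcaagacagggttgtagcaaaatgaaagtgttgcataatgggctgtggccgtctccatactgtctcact
Gstp1: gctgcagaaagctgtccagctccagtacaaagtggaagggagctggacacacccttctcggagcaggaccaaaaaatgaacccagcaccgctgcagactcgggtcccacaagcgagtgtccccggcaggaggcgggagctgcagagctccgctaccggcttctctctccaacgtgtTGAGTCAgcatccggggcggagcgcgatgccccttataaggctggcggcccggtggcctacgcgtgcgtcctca

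Motifs were searched on both strands of windows that also take in the 50 bases after each start, 300 bases in all, and 12 such windows belonged to 8 of the 9 members, all but Gsta4. Gstm5 held an antioxidant response element core, TGACCACGC, that began 42 bases before its start, and no other member window held one. The core lay in 12.4% of all 32851 RefSeq windows. An AP-1 site lay 176 bases before the start of Gstm5 (TGACTCA) and 74 bases before that of Gstp1 (TGAGTCA), and 7.81% of all windows held one. An element core and an AP-1 site can share bases where TGAC begins both, and the 2 matches of Gstm5 did not overlap. The E-box CATCTG, of the kind that basic helix-loop-helix factors bind, lay in windows of Gstm4 and Gstm6 and in 17.2% of all windows. No other form of E-box was searched. The printed sequences of Gstm1 and Gstt1 held none of the 3 motifs. A match describes the sequence and does not show binding.

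Twist1 itself was read in every array as the check of the labels. Its parental arrays read 9.01, 9.03 and 9.07, the Tw1KD arrays 7.47, 7.23 and 7.35, the wild-type arrays 8.35, 8.49 and 8.16, the S42A arrays 8.60, 8.71 and 8.80 and the S42D arrays 9.07, 8.96 and 8.97. Twist1 was thus lower in Tw1KD cells by 1.69 ± 0.080 (log2 difference ± SE; adjusted p = 7.12e-10, limma with Benjamini-Hochberg adjustment over all genes, as for all adjusted p-values here) and higher in each line that received it. Whether its probe set reads the introduced transcripts was not tested. The correlation between arrays ran from 0.997 to 0.999 within lines and from 0.975 to 0.987 between lines. The epithelial keratins Krt8 and Krt18 were high in all lines, but other markers moved with the lines: of the 5 epithelial markers, Epcam averaged 8.36 in parental, 9.76 in Tw1KD, 5.66 in wild-type, 5.55 in S42A and 5.63 in S42D cells. Cdh1, in the same order of lines, averaged 10.31, 11.46, 8.52, 6.34 and 7.50, and Krt19 averaged 10.07, 11.10, 8.74, 6.01 and 8.62, both lowest in the S42A line as Gstm5 was. Of the 4 endothelial markers, Kdr and Tek stayed in the dimmest 25% of values in every line, while Cdh5 averaged 10.67 in the S42D line and between 5.66 and 7.26 in the others. Of the 5 leukocyte markers, Ptprc, Adgre1 and Cd79a were in the dimmest 25% in every line and Cd3e averaged 6.54 to 6.83, but Cd68 averaged 8.50 in parental cells and 9.80 to 10.71 in the derived lines. Of the 5 fibroblast markers, Lum was in the dimmest 25% in every line and Dcn in 2 lines, while Col1a1 (7.31 to 7.71), Col3a1 (7.32 to 7.45) and Thy1 (6.43 to 6.55) were above it in all lines and varied little. The summed level of the epithelial list (log2) was 14.08 to 14.15 in parental, 14.26 to 14.32 in Tw1KD, 13.87 to 13.91 in wild-type, 13.78 to 13.81 in S42A and 13.95 to 13.97 in S42D cells. That of the fibroblast list was 8.78 to 9.16 over all arrays, that of the leukocyte list 9.09 to 9.21 in parental cells and 10.06 to 10.90 in the others, and that of the endothelial list 10.76 to 10.80 in the S42D line and 7.34 to 8.19 in the others. The part of these markers in the results was not tested. In cultures read in bulk, fewer cells of a kind and less RNA per cell cannot be told apart.

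Gstm5, a mu-class transferase, differed more across the 5 lines than any other of the 9 genes. For Gstm5, parental arrays read 8.97, 8.93 and 8.98, the Tw1KD arrays 7.46, 7.27 and 7.48 and the wild-type arrays 7.90, 7.90 and 7.79. The S42A arrays read 4.53, 4.68 and 4.34 and the S42D arrays 9.45, 9.30 and 9.49. The arrays of the 5 lines did not overlap anywhere, and the order from the top was S42D, parental, wild-type, Tw1KD, S42A. The line means ± SD were 9.41 ± 0.098, 8.96 ± 0.023, 7.86 ± 0.063, 7.40 ± 0.12 and 4.52 ± 0.17 in that order (n = 3 arrays each).

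The depletion of Twist1 went with a fall in Gstm5. Tw1KD cells lay below parental cells by 2.94-fold, a log2 difference of -1.56 ± 0.081 (95% interval -1.73 to -1.38, adjusted p = 2.04e-09). Return of wild-type Twist1 was followed by a rise of 0.46 ± 0.081 (adjusted p = 0.000253), which left the wild-type line below parental cells, by a log2 difference of -1.10 ± 0.081 (adjusted p = 4.15e-08). The S42A and S42D lines lay on opposite sides of the Tw1KD line they were made from. The S42A mean was lower than the Tw1KD mean by 2.89 on the log2 scale, or 7.40-fold, and lower than the parental mean by 4.44, or 21.8-fold. The S42D mean was higher than the Tw1KD mean by 2.01, or 4.03-fold, and higher than the parental mean by 0.45. Between the S42D and S42A lines the Gstm5 difference was 4.90, or 29.8-fold, the fifth of 19937 genes by size (rank 5). These S42A and S42D differences carry no test because the gene was chosen for them. The S42A mean of 4.52 lay in the dimmest 25% of line means, below 5.50, where array signal flattens, so the folds against that line may be understated.

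**Figure D1:**
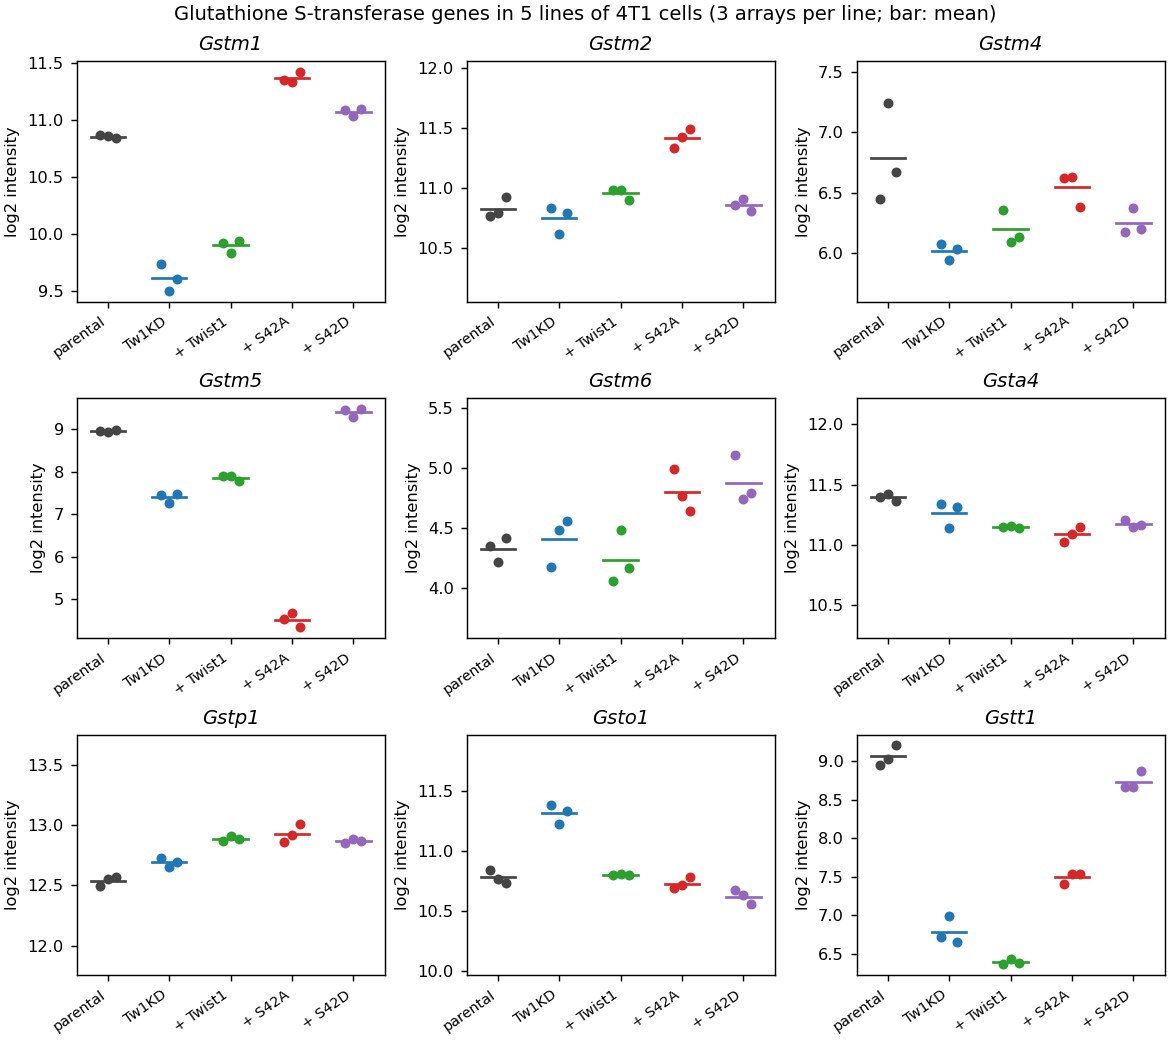
Log2 intensity of the 9 GST genes on each of the 15 arrays, with 1 panel per gene, the 5 lines along the x axis, a point per array and a bar at the mean of 3 arrays. Gstm5 runs from 4.34 in an S42A array to 9.49 in an S42D array, while the arrays of Gsta4 all lie between 11.02 and 11.42.

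Gstm1, the mu-class enzyme best known as an abundant liver transferase, shared the fall in Tw1KD cells with Gstm5 but not its low level in the S42A line. For Gstm1, parental arrays read 10.87, 10.86 and 10.84, the Tw1KD arrays 9.74, 9.50 and 9.61 and the wild-type arrays 9.92, 9.83 and 9.94. The S42A arrays read 11.35, 11.33 and 11.42 and the S42D arrays 11.09, 11.04 and 11.10. Again no 2 lines overlapped, but here the S42A line was on top and Tw1KD cells at the bottom. Tw1KD cells lay below parental cells by 1.24 ± 0.054, a log2 difference of -1.24 (adjusted p = 3.15e-10). Gstm1 rose against Tw1KD cells by 0.28 in the wild-type line (adjusted p = 0.00053), by 1.76 in the S42A line (adjusted p = 4.6e-12) and by 1.46 in the S42D line (adjusted p = 3.11e-11), each ± 0.054. The rises in the S42A and S42D lines were larger than that in the wild-type line, by 1.47 (adjusted p = 5.61e-11) and 1.18 (adjusted p = 3.19e-10), and both lines lay above parental cells, by 0.52 (adjusted p = 2.32e-06) and 0.22 (adjusted p = 0.00538). The S42D mean was 0.30 below the S42A mean, which was not tested.

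Gstm2, a further mu-class transferase, was highest in the S42A line. For Gstm2, parental arrays read 10.77, 10.80 and 10.93, the Tw1KD arrays 10.83, 10.62 and 10.80, the wild-type arrays 10.99, 10.98 and 10.90, the S42A arrays 11.34, 11.43 and 11.49 and the S42D arrays 10.86, 10.91 and 10.81. Every S42A array lay above every array of the other lines, which overlapped among themselves along the order of their means. The S42A line was higher than Tw1KD cells by 0.67 ± 0.064 (adjusted p = 6.1e-07), than the wild-type line by 0.46 (adjusted p = 3.31e-05) and than parental cells by 0.59 (adjusted p = 2.89e-06). The S42D line did not pass against Tw1KD cells (0.11, adjusted p = 0.186), the wild-type line (-0.10, adjusted p = 0.279) or parental cells (0.03, adjusted p = 0.759). Tw1KD against parental cells gave -0.08 (adjusted p = 0.387) and the wild-type line against parental cells 0.12 (adjusted p = 0.122), which passed at 0.25 with each array centred on its median, at 0.15 with array weights and at 0.17 without parental replicate 3. The wild-type line was above Tw1KD cells by 0.21 ± 0.064 (adjusted p = 0.0152), a call that was lost without Tw1KD replicate 2 (0.14, adjusted p = 0.0765), wild-type replicate 1 (0.19, adjusted p = 0.0523) or wild-type replicate 2 (0.19, adjusted p = 0.0501). Between S42D and S42A the Gstm2 difference was -0.56, not tested, which is opposite in sign to that of Gstm5.

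Gstm4, the last mu-class gene of the chromosome 3 cluster, was highest and most variable in parental cells. For Gstm4, parental arrays read 6.44, 7.25 and 6.67, the Tw1KD arrays 6.07, 5.94 and 6.03, the wild-type arrays 6.36, 6.09 and 6.13, the S42A arrays 6.62, 6.63 and 6.38 and the S42D arrays 6.17, 6.37 and 6.19. The parental SD was 0.41, the widest of the 9 genes in any line. Gstm4 fell in Tw1KD cells, by a log2 difference of -0.77 ± 0.15 (adjusted p = 0.000955), and was also lower than in parental cells in the wild-type line (-0.59, adjusted p = 0.00504) and the S42D line (-0.54, adjusted p = 0.0122, or 0.0595 with those 2 lines fitted alone). Without parental replicate 2, the highest array, these differences shrank to -0.36 and -0.31 (adjusted p = 0.0109 and 0.0339). The S42A line lay above Tw1KD cells by 0.53 (adjusted p = 0.0112). It did not pass against parental cells (-0.24, adjusted p = 0.249), although without parental replicate 1 it did (-0.41, adjusted p = 0.0359). Against Tw1KD cells neither the wild-type line (0.18, adjusted p = 0.361) nor the S42D line (0.23, adjusted p = 0.259) passed.

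Gstm6, another mu-class gene, was dim throughout, with all 5 line means in the dimmest 25%. For Gstm6, parental arrays read 4.35, 4.21 and 4.42, the Tw1KD arrays 4.18, 4.48 and 4.56, the wild-type arrays 4.06, 4.49 and 4.17, the S42A arrays 4.99, 4.77 and 4.64 and the S42D arrays 5.11, 4.74 and 4.79. The S42A and S42D arrays all lay above those of the other 3 lines. Against parental cells the S42A line was higher by 0.47 ± 0.13 (adjusted p = 0.0109, or 0.0555 without S42A replicate 1) and the S42D line by 0.55 ± 0.13 (adjusted p = 0.0047). Against the wild-type line they were higher by 0.56 (adjusted p = 0.00353) and 0.64 (adjusted p = 0.00108). Against Tw1KD cells the rise was 0.39 in the S42A line (adjusted p = 0.0285) and 0.47 in the S42D line (adjusted p = 0.01). The first of these calls was lost without Tw1KD replicate 1 (0.28, adjusted p = 0.14), S42A replicate 1 (0.30, adjusted p = 0.124) or S42A replicate 2 (0.41, adjusted p = 0.0537). The second was lost without Tw1KD replicate 1 (0.36, adjusted p = 0.056) or S42D replicate 1 (0.36, adjusted p = 0.0566). Tw1KD cells and the wild-type line did not pass against parental cells, at 0.08 (adjusted p = 0.73) and -0.09 (adjusted p = 0.608). At this brightness the probe set may read another mu-class transcript or the array background, neither of which was tested.

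Gstt1, the theta-class enzyme that conjugates small halogenated compounds, had the largest fall of the 9 genes in Tw1KD cells. For Gstt1, parental arrays read 8.95, 9.03 and 9.20, the Tw1KD arrays 6.72, 6.99 and 6.65 and the wild-type arrays 6.37, 6.44 and 6.39. The S42A arrays read 7.41, 7.54 and 7.54 and the S42D arrays 8.66, 8.66 and 8.87. No 2 lines overlapped, and the order from the top was parental, S42D, S42A, Tw1KD, wild-type. Tw1KD cells lay 4.83-fold below parental cells, a log2 difference of -2.27 ± 0.088 (adjusted p = 9.2e-11). Return of wild-type Twist1 was not followed by a rise: the wild-type line lay below Tw1KD cells, at -0.39 ± 0.088 (adjusted p = 0.00195), and below parental cells, at -2.66 (adjusted p = 1.57e-11). The S42A line rose against Tw1KD cells by 0.70 (adjusted p = 1.01e-05) and the S42D line by 1.94 (adjusted p = 2.61e-10). Against the wild-type line the rise was 1.09 for S42A (adjusted p = 1.63e-07) and 2.33, or 5.03-fold, for S42D (adjusted p = 4.14e-11). Both stayed below parental cells, at -1.57 (adjusted p = 3.59e-09) and -0.33 (adjusted p = 0.00866). The S42D mean was 1.24 above the S42A mean, which was not tested.

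Gstt3, the theta-class gene annotated next to Gstt1, fell in Tw1KD cells as well. For Gstt3, parental arrays read 10.47, 10.39 and 10.32, the Tw1KD arrays 8.84, 8.69 and 8.93, the wild-type arrays 9.50, 9.50 and 9.42, the S42A arrays 9.67, 9.71 and 9.79 and the S42D arrays 10.53, 10.34 and 10.36. In Tw1KD cells it fell by 1.57 ± 0.068 on the log2 scale (adjusted p = 2.57e-10). Unlike Gstt1 it then rose in the wild-type line, by 0.65 ± 0.068 (adjusted p = 1.4e-06), and the difference between the responses of these genes was not tested. Gstt4, on the other side of Gstt1, averaged between 4.93 and 5.10 in all 5 lines, within the dimmest 25% throughout.

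Gsto1, the omega-class enzyme that reduces dehydroascorbate and removes glutathione from proteins, was the member with its highest level in Tw1KD cells. For Gsto1, parental arrays read 10.84, 10.77 and 10.74, the Tw1KD arrays 11.38, 11.22 and 11.33, the wild-type arrays 10.80, 10.80 and 10.80, the S42A arrays 10.69, 10.72 and 10.78 and the S42D arrays 10.67, 10.63 and 10.56. The Tw1KD arrays stood above all others, and parental, wild-type and S42A arrays overlapped along their order. Gsto1 rose in Tw1KD cells by 0.53 ± 0.049 (adjusted p = 8.51e-07). It was lower than in Tw1KD cells in the wild-type line, at -0.51 (adjusted p = 6.83e-07), the S42A line, at -0.58 (adjusted p = 1.92e-07), and the S42D line, at -0.69 (adjusted p = 3.23e-08). Against parental cells the wild-type line (0.02, adjusted p = 0.791) and the S42A line (-0.05, adjusted p = 0.436) did not pass. The S42D line did, at -0.16 (adjusted p = 0.0183), but not with each array centred on its median (-0.083, adjusted p = 0.387), nor without parental replicate 1 (adjusted p = 0.084) or S42D replicate 3 (adjusted p = 0.0821). The S42D line was also lower than the wild-type line, at -0.18 (adjusted p = 0.00762).

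Gsto2, the other omega gene and next to Gsto1 in the annotation, rose in Tw1KD cells too, by 1.08 ± 0.081 (adjusted p = 9.61e-08). For Gsto2, parental arrays read 7.53, 7.55 and 7.71, the Tw1KD arrays 8.77, 8.45 and 8.80, the wild-type arrays 7.89, 7.91 and 7.90, the S42A arrays 6.59, 6.79 and 6.71 and the S42D arrays 8.50, 8.44 and 8.48. It was lower than in Tw1KD cells in the wild-type line (-0.77, adjusted p = 1.57e-06) and the S42A line (-1.98, adjusted p = 8.86e-11). The S42D line did not pass (-0.20, adjusted p = 0.0602).

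Gstp1, the pi-class enzyme that is the main GST of many carcinomas, was lowest in parental cells and among the brightest signals on the arrays. For Gstp1, parental arrays read 12.50, 12.55 and 12.57, the Tw1KD arrays 12.72, 12.65 and 12.70, the wild-type arrays 12.87, 12.91 and 12.88, the S42A arrays 12.86, 12.92 and 13.01 and the S42D arrays 12.85, 12.89 and 12.87. The array values fell into 3 steps, with parental cells below Tw1KD cells and Tw1KD cells below the other 3 lines, which overlapped. Against Tw1KD cells it rose in the wild-type line by 0.20 ± 0.043 (adjusted p = 0.00137), in the S42A line by 0.24 (adjusted p = 0.000291) and in the S42D line by 0.18 (adjusted p = 0.00297). Against parental cells these lines were higher by 0.35 (adjusted p = 7.91e-06), 0.39 (adjusted p = 3.24e-06) and 0.33 (adjusted p = 2.28e-05). The step from parental to Tw1KD cells was 0.15 ± 0.043 (adjusted p = 0.0115), and it was lost with only those 2 lines in the fit (adjusted p = 0.0604) or without parental replicate 1 (0.13, adjusted p = 0.0549). The S42A and S42D lines did not pass against the wild-type line, at 0.04 (adjusted p = 0.482) and -0.02 (adjusted p = 0.81). The highest value on any array was 14.02, so the Gstp1 signal was near the top of the scale, where differences can be compressed.

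Gsta4, the alpha-class enzyme for 4-hydroxynonenal, varied least, with line means that spanned 0.31. For Gsta4, parental arrays read 11.40, 11.42 and 11.37, the Tw1KD arrays 11.34, 11.14 and 11.32, the wild-type arrays 11.14, 11.15 and 11.14, the S42A arrays 11.02, 11.09 and 11.15 and the S42D arrays 11.21, 11.15 and 11.16. Parental arrays were above all others, and the remaining lines overlapped along their order. Against parental cells Gsta4 was lower in wild-type Twist1 cells (-0.25 ± 0.051, adjusted p = 0.000912), the S42A line (-0.31, adjusted p = 0.000169) and the S42D line (-0.22, adjusted p = 0.00315), and the wild-type and S42D calls were lost with each array centred on its median (adjusted p = 0.168 and 0.14). Tw1KD cells did not pass against parental cells (-0.13, adjusted p = 0.0633). The S42A line was lower than Tw1KD cells by a log2 difference of -0.18 (adjusted p = 0.0103), a call lost with each array centred (-0.12, adjusted p = 0.201), with only those 2 lines in the fit (adjusted p = 0.0859) or without Tw1KD replicate 1 (adjusted p = 0.0535).

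Counted over the 9 genes, 6 passed in Tw1KD against parental cells, 2 of them higher (Gstp1 and Gsto1) and 4 lower (Gstm1, Gstm4, Gstm5 and Gstt1), where 36.3% of all genes were called (19.9% higher and 16.4% lower). The median difference was -0.13 for the members and 0.0051 for all genes. A change of at least 1 log2 was seen in 3 of the 9 (Gstm1, Gstm5 and Gstt1), against 2.65% of all genes. Gstm1, Gstm5 and Gstt1 also carried the widest differences between the 5 lines.

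Against Tw1KD cells, the wild-type line had 6 of 9 members called, 4 higher (Gstm1, Gstm2, Gstm5 and Gstp1) and 2 lower (Gsto1 and Gstt1), beside 48.0% of all genes (23.5% higher and 24.5% lower). None reached 1 log2, as 4.84% of all genes did. In the S42A line all 8 tested members were called against Tw1KD cells, 6 higher and 2 lower (Gsta4 and Gsto1), beside 42.5% of all genes (22.8% and 19.7%). In the S42D line 5 of 8 were called, with Gstm1, Gstm6, Gstp1 and Gstt1 higher and Gsto1 lower, beside 43.4% (21.7% in each direction). At least 1 log2 was reached by 1 of the 8 in the S42A line (Gstm1) and 2 of the 8 in the S42D line (Gstm1 and Gstt1), beside 4.84% and 4.55% of all genes. Member medians against Tw1KD cells were 0.18, 0.46 and 0.20 in the wild-type, S42A and S42D lines, while the medians of all genes were -0.061, -0.013 and -0.045. These 3 comparisons share the Tw1KD arrays. With so large a share of all genes called, these counts over 8 or 9 genes are read against that background and not as a result about the members.

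Set against the wild-type line, 4 of 8 members were called in the S42A line, all higher (Gstm1, Gstm2, Gstm6 and Gstt1), beside 40.0% of all genes (20.0% in each direction). In the S42D line 4 of 8 were called, Gstm1, Gstm6 and Gstt1 higher and Gsto1 lower, beside 43.3% (20.7% higher and 22.6% lower). These counts are near the background. Against parental cells the wild-type line had 6 of 9 called, with Gstp1 the 1 that was higher, beside 49.0% of all genes (25.0% higher, 24.0% lower). The S42A line had 6 of 8 called against parental cells, 4 of them higher, beside 40.3% (22.6% higher and 17.7% lower). The S42D line had 7 of 8 called, 3 higher and 4 lower, beside 37.0% (19.8% higher and 17.2% lower). Between the S42D and S42A lines, 2 of the 9 members, Gstm5 and Gstt1, differed by at least 1 log2, as 3.16% of all genes did, and nothing is read from this count because the group was chosen on that contrast.

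**Figure D2:**
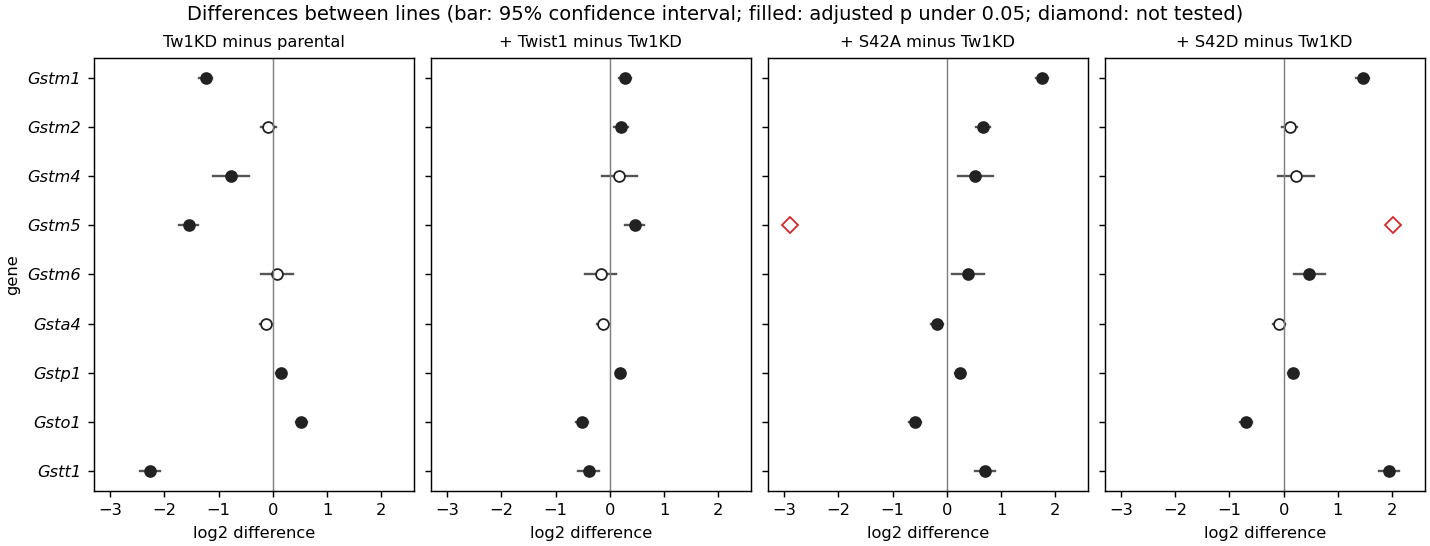
Log2 differences of the 9 GST genes in Tw1KD against parental cells and in the wild-type, S42A and S42D lines against Tw1KD cells. Each gene has a point per comparison and a bar for its 95% interval where the difference was tested. Gstt1 and Gstm5 lie lowest in Tw1KD against parental cells, at -2.27 and -1.56. Against Tw1KD cells Gstm5 lies at -2.89 in the S42A line and at 2.01 in the S42D line, values given with no test.

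The 5 mu-class members sit in 1 cluster on chromosome 3, in the RefSeq order Gstm5, Gstm7, Gstm6, Gstm3, Gstm2, Gstm1, Gstm4, with Eps8l3 and Ampd2 beyond the ends. Along this row the S42A line did not move as 1 block against parental cells. Its differences were -4.44 for Gstm5, -0.46 for Gstm7, 0.47 for Gstm6, 0.36 for Gstm3 (by its brighter probe set), 0.59 for Gstm2, 0.52 for Gstm1 and -0.24 for Gstm4. In Tw1KD cells the same row read -1.56, -1.21, 0.08, -0.84, -0.08, -1.24 and -0.77. The flanking gene Eps8l3 lay between -0.19 and 0.0031 from its parental mean in the 4 derived lines, and Ampd2 was between 0.14 and 0.38 above it. Differences in the row depend on how far the mu probe sets read 1 gene each.

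Gstm7, and Gstm3 by its brighter probe set, fell in Tw1KD cells and rose against them in the S42A and S42D lines. They are the mu-class genes of the cluster outside the 9. Gstm7 was lower in Tw1KD than in parental cells by 1.21 ± 0.089, a log2 difference of -1.21 (adjusted p = 7.07e-08). Against Tw1KD cells it did not pass in the wild-type line (0.06, adjusted p = 0.615) and rose in the S42A line by 0.76 (adjusted p = 5.65e-06) and in the S42D line by 1.44 (adjusted p = 6.8e-09). Gstm3 fell by 0.84 ± 0.048 in Tw1KD cells (adjusted p = 5.75e-09) by its brighter probe set, while its dimmer probe set stayed between 6.17 and 6.79 on all arrays. By the brighter probe set Gstm3 rose against Tw1KD cells by 0.16 in the wild-type line (adjusted p = 0.0124), by 1.20 in the S42A line (adjusted p = 6.94e-11) and by 0.98 in the S42D line (adjusted p = 6.5e-10). The line means of this probe set had the same order as those of Gstm1. Which of the Gstm3 probe sets reads Gstm3 itself was not tested, so its values may not be those of the cluster gene.

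The long non-coding RNA gene 4933431E20Rik, on the strand opposite to Gstm5, overlaps Gstm5 in the RefSeq annotation and was looked at for that position after its values were seen. For 4933431E20Rik,, parental arrays read 6.38, 6.31 and 6.38, the Tw1KD arrays 5.74, 5.86 and 6.01, the wild-type arrays 6.08, 6.09 and 5.99, the S42A arrays 5.47, 5.54 and 5.40 and the S42D arrays 7.68, 7.65 and 7.49. The order of the 5 line means was that of Gstm5, with S42D on top and S42A at the bottom. In Tw1KD cells it fell by 0.49 ± 0.068 (adjusted p = 4.59e-05). The wild-type line lay above Tw1KD cells by 0.18 (adjusted p = 0.0399), with overlapping arrays, and below parental cells, at -0.30 (adjusted p = 0.00191). Between S42D and S42A its difference was 2.13, not tested, and its S42A mean of 5.47 lay in the dimmest 25%, so differences from that line may be understated. Probe positions were not analysed here, so whether its probe set and that of Gstm5 read the same RNA was not tested.

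**Figure D3:**
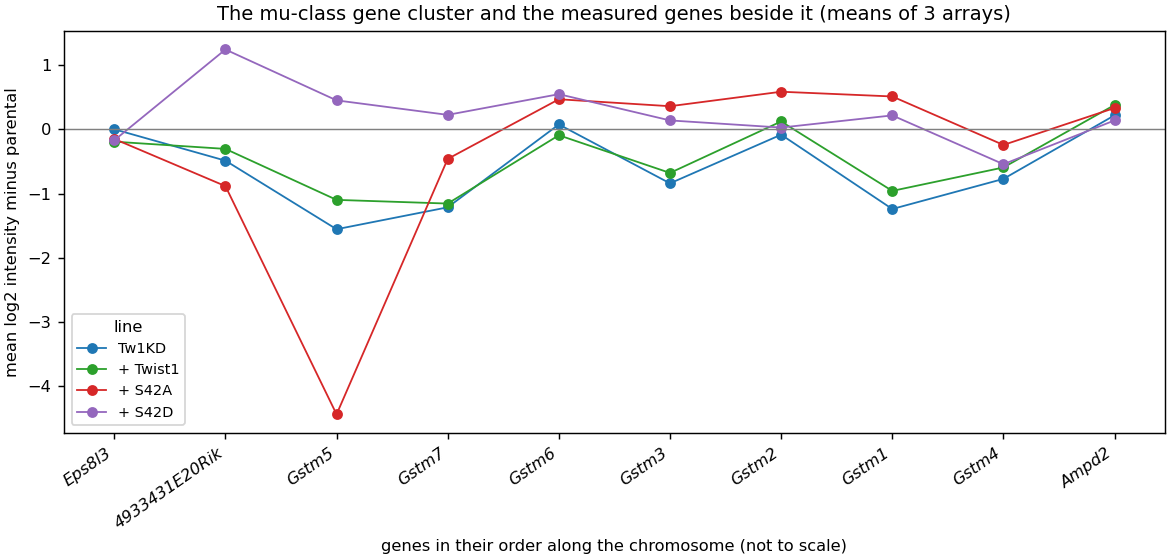
Log2 difference from the parental mean for the mu-class cluster genes and their neighbours in RefSeq order, with 1 line of points for each of Tw1KD, wild-type, S42A and S42D cells (means of 3 arrays). The S42A points lie at -4.44 for Gstm5 and between -0.46 and 0.59 for the other mu-class genes, and the flanking genes Eps8l3 and Ampd2 lie between -0.19 and 0.38. The gene 4933431E20Rik, drawn between Eps8l3 and Gstm5, runs from -0.88 in S42A to 1.25 in S42D cells. Gstm3 is drawn from its brighter probe set.

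Likeness to Gstm5 was measured as Pearson's r over the 15 arrays among the 2506 genes outside the members whose line means spanned at least 1 log2. Predicted and clone-named gene models were passed over, and the 5 highest of the rest are named. They were Man1c1, a Golgi mannosidase (r = 0.997), Egr1, an immediate-early zinc finger transcription factor (r = 0.989), Itpkb, an inositol trisphosphate kinase (r = 0.987), Plet1, a placenta-expressed surface protein (r = 0.981), and Ogdhl, an oxoglutarate dehydrogenase-like protein (r = 0.974). The 15 points are 5 lines of 3 arrays that share their line, so r describes these lines and has no p. All 5 genes were lowest in the S42A line, which follows from choosing them by likeness to Gstm5. Man1c1 averaged 8.18 there, against 10.83 in parental, 9.94 in Tw1KD, 10.13 in wild-type and 10.94 in S42D cells. Egr1 averaged 8.08 in the S42A line and between 9.12 and 9.76 in the other 4. Among the other members, r with Gstm5 ran from -0.82 for Gstm2 to 0.54 for Gsta4. With Twist1 itself r was 0.22 for Gstm5, 0.83 for Gstm1, 0.75 for Gstt1, 0.61 for Gstm4 and -0.90 for Gsto1. For Gstm6, Gstm2, Gstp1 and Gsta4 the r with Twist1 was 0.33, 0.31, 0.09 and 0.04. These values also describe the 5 lines and have no p.

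Of 20 further glutathione transferase genes, 17 were measured, and Gsta1, Gsta2 and Gstp2 were found on probe sets with several gene names alone. In Tw1KD against parental cells 9 of 17 were called, 3 higher and 6 lower, where 36.3% of all genes were called (16.4% lower), with a median of -0.050 beside 0.0051 for all genes. Against Tw1KD cells, the wild-type line had 4 higher and 3 lower, the S42A line 6 higher and 4 lower, and the S42D line 8 higher and 2 lower. The medians were 0.022, -0.015 and -0.019. These counts of 7, 10 and 10 called among 17 stand beside the 48.0%, 42.5% and 43.4% of all genes given above.

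Within that list Gstk1, a transferase of mitochondria and peroxisomes, rose in the S42A line by 1.01 ± 0.093 (adjusted p = 4.45e-07) and did not pass in the wild-type line (0.02, adjusted p = 0.849) or the S42D line (-0.02, adjusted p = 0.862), all against Tw1KD cells. All 5 of its line means lay in the dimmest 25%, so this probe set may read array background, which was not tested. Mgst1, a membrane-bound microsomal transferase, was higher than in Tw1KD cells in the S42A line (0.35, adjusted p = 0.00108) and lower in the S42D line (-0.72, adjusted p = 1.13e-06). Mgst3, a related membrane protein, rose in all 3 lines, by 0.54, 0.74 and 0.35 in the wild-type, S42A and S42D lines. Gstz1, the zeta enzyme of tyrosine breakdown, was lower in wild-type cells (-0.79, adjusted p = 4.25e-07) and S42A cells (-0.98, adjusted p = 4.74e-08), and higher in the S42D line (0.20, adjusted p = 0.0428). Gstcd, which carries a transferase-like domain, rose in Tw1KD cells by 0.40 (adjusted p = 5.6e-05). It was lower than in Tw1KD cells in the wild-type line (-0.25), the S42A line (-0.81) and the S42D line (-0.41).

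Genes that make, recycle or break down glutathione, the substrate of the GSTs, were split in direction. Of 29 listed, 27 were measured. In Tw1KD against parental cells 12 were higher and 8 lower, beside 36.3% of all genes called, with a median of 0.098. Against Tw1KD cells 8 were higher and 10 lower with wild-type Twist1, 8 and 9 with S42A, and 10 and 12 with S42D, with medians of -0.064, -0.041 and 0.012. Those 18, 17 and 22 of 27 called stand beside 48.0%, 42.5% and 43.4% of all genes.

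Glutamate-cysteine ligase, the rate-limiting enzyme of glutathione synthesis, has a catalytic subunit, Gclc, and a modifier subunit, Gclm, which differed in where they were highest. Gclc read 10.49, 10.35 and 10.46 on the parental arrays, 10.68, 10.65 and 10.69 on Tw1KD, 11.05, 11.09 and 11.04 on wild-type, 11.34, 11.36 and 11.36 on S42A and 10.75, 10.65 and 10.65 on S42D arrays. Gclm read 11.12, 11.15 and 11.18 on the parental arrays, 11.37, 11.26 and 11.36 on Tw1KD, 11.99, 11.91 and 11.99 on wild-type, 11.34, 11.28 and 11.24 on S42A and 10.71, 10.62 and 10.68 on S42D arrays. The S42A arrays were thus on top for Gclc, the wild-type arrays for Gclm, and the S42D arrays were lowest for Gclm. Against Tw1KD cells Gclc rose by 0.39 in the wild-type line (adjusted p = 3.14e-06) and 0.68 in the S42A line (adjusted p = 1.05e-08), and did not pass in the S42D line (0.01, adjusted p = 0.852). Gclm rose by 0.63 in the wild-type line (adjusted p = 2.58e-08), did not pass in the S42A line (-0.04, adjusted p = 0.539) and was lower in the S42D line (-0.66, adjusted p = 1.8e-08).

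Among the genes of glutathione breakdown, Dpep1, the surface dipeptidase that splits cysteinylglycine, had the widest change. It was 6.20, 6.01 and 6.11 in parental cells and 9.31, 9.01 and 9.19 in Tw1KD cells, and no array of the other lines was above 6.14. It rose in Tw1KD cells by 3.06 ± 0.089 (adjusted p = 4.93e-12) and was lower than there in the wild-type (-3.40), S42A (-3.21) and S42D (-3.57) lines. Chac1, which degrades cytosolic glutathione, rose in Tw1KD cells by 1.15 ± 0.050 (adjusted p = 3e-10) and was lower than in them in the wild-type (-0.45), S42A (-1.80) and S42D (-1.20) lines. Its relative Chac2 went the other way, with -0.37 in Tw1KD cells and then 0.75, 1.02 and 1.09. Slc7a11, the importer of cystine, fell in Tw1KD cells by 0.65 (adjusted p = 3.66e-08) and was lower still in the wild-type line (-0.36 against Tw1KD cells) and the S42A line (-0.61). Anpep, a surface aminopeptidase, was -0.51 in Tw1KD cells and rose against them by 0.97 in the S42D line (adjusted p = 3.56e-07). It also rose in the S42A line, by 0.31 (adjusted p = 0.0097), and did not pass in the wild-type line (0.22, adjusted p = 0.0541). Gpx1, a glutathione peroxidase, rose by 0.86 in the wild-type line (adjusted p = 5.23e-09). Gpx1 averaged 11.45 in Tw1KD, 12.31 in wild-type, 11.97 in S42A and 11.67 in S42D cells. Hagh, the glyoxalase that releases glutathione, rose in Tw1KD cells by 0.44 and was lower than there by a log2 difference of -0.49 in the wild-type line, with an adjusted p of 6.55e-08. Hagh averaged 10.66 in Tw1KD, 10.17 in wild-type, 9.79 in S42A and 10.11 in S42D cells, so the S42A line was lowest.

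The list of Nrf2 regulators and target genes had 29 of 31 genes measured. In Tw1KD against parental cells 7 were higher and 9 lower, where 19.9% and 16.4% of all genes were called in those directions, with a median of -0.025. Against Tw1KD cells 13 were higher and 10 lower with wild-type Twist1, 12 and 6 with S42A, and 15 and 5 with S42D, with medians of 0.022, 0.052 and 0.12. The share called, 23, 18 and 20 of 29 in those lines, stands beside 48.0%, 42.5% and 43.4% of all genes.

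Nfe2l2, which encodes Nrf2, and Keap1, which encodes the adaptor that marks Nrf2 for degradation, were both lowest in Tw1KD cells. Nfe2l2 read 11.95, 11.89 and 12.00 on the parental arrays, 11.52, 11.35 and 11.44 on Tw1KD, 12.10, 12.08 and 12.09 on wild-type, 12.03, 12.08 and 12.01 on S42A and 12.22, 12.24 and 12.17 on S42D arrays. Keap1 read 9.73, 9.81 and 9.71 on the parental arrays, 9.16, 9.23 and 9.26 on Tw1KD, 9.90, 9.98 and 9.92 on wild-type, 9.64, 9.75 and 9.70 on S42A and 10.00, 9.96 and 10.02 on S42D arrays. No Tw1KD array of either gene reached the arrays of another line. In Tw1KD cells Nfe2l2 fell by 0.51 ± 0.047 (adjusted p = 6.82e-07) and Keap1 by 0.53 ± 0.044 (adjusted p = 2.56e-07). Against Tw1KD cells Nfe2l2 rose by 0.66, 0.60 and 0.78 in the wild-type, S42A and S42D lines, and Keap1 by 0.71, 0.48 and 0.78, all with adjusted p-values under 0.05.

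The targets did not share 1 pattern. Nqo1, a quinone reductase and a standard Nrf2 target, read 8.66, 8.49 and 8.73 on the parental arrays, 8.93, 8.68 and 8.93 on Tw1KD, 9.14, 9.20 and 9.12 on wild-type, 9.31, 9.35 and 9.44 on S42A and 9.58, 9.56 and 9.62 on S42D arrays. Hmox1, the heme oxygenase that is a target of both Nrf2 and its competitor Bach1, read 9.42, 9.32 and 9.36 on the parental arrays, 9.42, 9.48 and 9.45 on Tw1KD, 10.03, 10.07 and 9.96 on wild-type, 9.04, 9.10 and 9.16 on S42A and 7.73, 7.81 and 7.70 on S42D arrays. The S42D arrays were thus the highest for Nqo1 and the lowest for Hmox1. Against Tw1KD cells Nqo1 rose by 0.31, 0.52 and 0.74 in the wild-type, S42A and S42D lines (adjusted p = 0.00271, 2.96e-05 and 8.68e-07). Hmox1 rose by 0.57 in the wild-type line (adjusted p = 1.44e-07) and was lower in the S42A line (-0.35, adjusted p = 2.4e-05) and the S42D line (-1.70, adjusted p = 1.42e-12). Bach1 rose in the S42D line by 0.94 ± 0.051 (adjusted p = 1.72e-09). Bach1 averaged 8.99 in Tw1KD, 8.80 in wild-type, 9.29 in S42A and 9.93 in S42D cells.

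Ephx1, the microsomal epoxide hydrolase, read 9.80, 9.71 and 9.83 on the parental arrays, 8.35, 8.09 and 8.29 on Tw1KD, 9.43, 9.41 and 9.32 on wild-type, 10.84, 10.95 and 10.93 on S42A and 11.33, 11.35 and 11.32 on S42D arrays. It fell in Tw1KD cells by 1.54 ± 0.063 (adjusted p = 1.55e-10), and against them it rose by 1.14, 2.66 and 3.09 in the wild-type, S42A and S42D lines, the largest rises in the list in each. Osgin1, an oxidative stress-induced growth inhibitor, ran the other way, with 1.07 ± 0.042 in Tw1KD cells (adjusted p = 9.53e-11) and then -1.05, -1.20 and -0.51. Mafk, a small Maf partner of Nrf2, rose in Tw1KD cells by 0.88 (adjusted p = 4.11e-09). Pgd, of the pentose phosphate pathway, rose in the wild-type line by 1.02 (adjusted p = 1.11e-11), and Srxn1, sulfiredoxin, in the S42A line by 0.94 (adjusted p = 6.65e-11). Pgd averaged 11.31 in Tw1KD cells and 12.33, 12.25 and 11.99 in the wild-type, S42A and S42D lines. Srxn1 averaged 10.48 in Tw1KD cells and 11.18, 11.42 and 11.08 in those lines, so neither rise was limited to a single line. Blvrb, biliverdin reductase B, was lower than in Tw1KD cells in the wild-type line (-1.31, adjusted p = 2.28e-11), and Aox1, aldehyde oxidase, in the S42A line (-0.97, adjusted p = 8.6e-11). Blvrb averaged 10.72 in Tw1KD, 9.41 in wild-type, 10.40 in S42A and 11.04 in S42D cells. Aox1 averaged 10.00, 9.62, 9.02 and 9.76 in the same order.

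**Figure D4:**
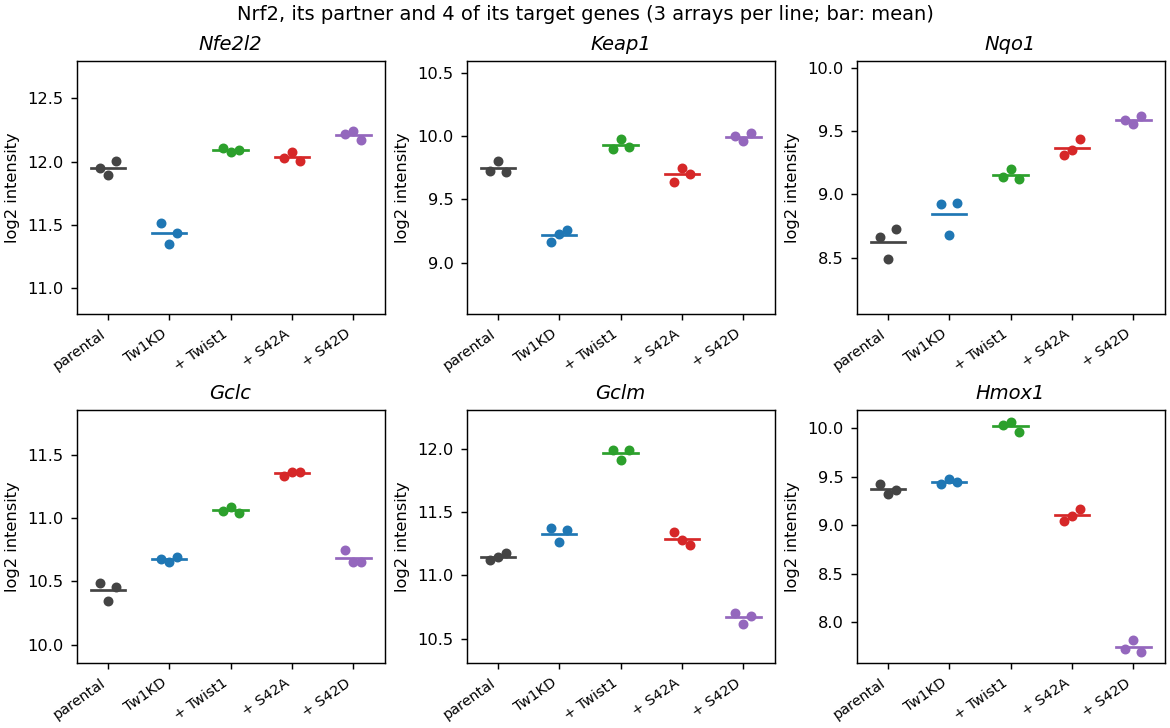
Log2 intensity on the 15 arrays of Gclc, Gclm, Nfe2l2, Keap1, Nqo1 and Hmox1, with the 5 lines along the x axis, a point per array and a bar at the mean of 3 arrays. Nfe2l2 and Keap1 are lowest in Tw1KD cells, while Hmox1 drops from 10.07 at most in the wild-type line to 7.70 at least in the S42D line.

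Of 7 exporters of glutathione conjugates, 6 were measured, and none was lower in Tw1KD than in parental cells: 4 were higher and 2 did not pass, with a median of 0.50 beside 0.0051 for all genes, of which 19.9% were called higher. Against Tw1KD cells 4 were lower and none higher in the wild-type line, 3 lower and none higher in the S42A line, and 4 lower and 1 higher in the S42D line. The medians were -0.47, -0.46 and -0.60, and 24.5%, 19.7% and 21.7% of all genes were called lower in those comparisons. Of these genes Abcg2 lay in the dimmest 25% of line means in all 5 lines and Abcc2 in 4 of them, where array signal flattens. With 6 genes measured, these counts describe the list and are not a result about it. The S42D count of 5 became 3 with quantile normalization, with those 2 lines alone in the fit, or without Tw1KD replicate 1, Tw1KD replicate 2, S42D replicate 2 or S42D replicate 3, and the S42A count of 3 became 5 with array weights.

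Abcc4, an exporter of conjugates and cyclic nucleotides, read 9.88, 9.83 and 9.83 on the parental arrays, 10.68, 10.65 and 10.70 on Tw1KD, 9.66, 9.62 and 9.62 on wild-type, 9.60, 9.68 and 9.73 on S42A and 9.42, 9.45 and 9.39 on S42D arrays. It rose in Tw1KD cells by 0.83 ± 0.040 (adjusted p = 9.53e-10) and was lower than there in the wild-type (-1.04), S42A (-1.01) and S42D (-1.26) lines. Abcc5, a relative, rose by 0.67 ± 0.067 (adjusted p = 1.48e-06) and was then lower by log2 differences of -0.78, -0.83 and -1.04. Abcc3, which exports conjugated bile acids and glucuronides as well, was 9.22, 9.25 and 9.35 in Tw1KD cells and 6.58, 6.49 and 6.40 in the wild-type line, a difference of -2.78 ± 0.062 (adjusted p = 2.56e-13). Abcc3 averaged 8.69 in parental, 9.27 in Tw1KD, 8.45 in S42A and 7.76 in S42D cells. Abcc1, the multidrug resistance protein that carries glutathione conjugates out of many cell types, rose in Tw1KD cells by 0.41 (adjusted p = 3.25e-06) and again in the S42D line by 0.12 (adjusted p = 0.0389).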

How the data were processed

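RNA from 15 samples of 5 lines of 4T1 cells was read on arrays. The authors deposited 1 value per probe set, taken here as log2 intensity from the range of the values. The submitters' processing notes name R 2.10.0 and affy without saying what each did, and normalization is not given in the sources used here. Of 34760 probe sets, 21640 named 1 gene, 1321 several and 11799 none, and 21553 were matched by gene number to RefSeq. The brightest probe set per gene by mean over all arrays gave 19937 genes, with no filter. Array medians ran from 6.57 to 6.72. The depth behind an array value is not known, and 3 arrays per line limit the precision.

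A model with 1 mean for each line was fitted to all arrays in limma 3.58.1 (R 4.3.3), 2-sided, at an adjusted p under 0.05 in 9 comparisons. The code was tested on simulated data. The S42D against S42A contrast and Gstm5 in any comparison with those lines received no test. The members and the 4 lists (other glutathione transferases, synthesis and breakdown, Nrf2 genes and exporters, 87 genes, 79 measured) were chosen with earlier results of these data known. Named genes were all 9 members, Twist1, Gclc, Gclm, Nfe2l2, Keap1, Nqo1 and Hmox1, and up to 2 genes per list, direction and comparison with the largest change among those called whose arrays did not overlap. The 5 genes most like Gstm5, with predicted and clone-named gene models passed over, were named as well. Alternatives were quantile normalization, median centring, array weights, an intensity trend, 2-line fits, a filter on dim genes, other uses of probe sets, a replicate block and leaving out each array.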

Additional observations from a re-analysis of the deposited data

Results flagged for a closer look

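Gstm5 and Gstt1 levels were unlike in the wild-type, S42A and S42D lines. Each form of Twist1 was read in a single line. The Twist1 mean was lowest in the wild-type line, higher in the S42A line and highest in the S42D line. The Gstt1 means had the same order and the Gstm5 means did not. The form of Twist1, its level and the line therefore cannot be told apart, and the part of each was not tested. For Gstm5, the difference from Tw1KD cells in the S42A line minus that in the wild-type line was -3.35, with every S42A array below and every wild-type array above the Tw1KD arrays, and this difference was not tested. For Gstt1, the difference in the S42A line minus that in the wild-type line was 1.09 (adjusted p = 1.63e-07), and that in the S42D line minus that in the wild-type line was 2.33 (adjusted p = 4.14e-11).

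Probe sets that name several genes were left out of the comparisons, and 3 of those name the same 4 genes, Gsta1 and Gsta2 among them. None of the 3 can be assigned to 1 gene, and 2 of them lay at least 1 log2 above parental cells in some lines with no overlap of arrays. Probe set 10587331 read 3.09, 3.25 and 4.54 on the parental arrays, 9.15, 8.36 and 9.51 on Tw1KD, 8.68, 8.34 and 8.13 on wild-type, 5.22, 6.78 and 6.50 on S42A and 3.40, 3.70 and 4.42 on S42D arrays. Its parental arrays lay in the dimmest 25% of values, so the differences from parental cells as measured, 5.38 in Tw1KD cells, 4.76 with wild-type Twist1 and 2.54 with S42A, may be understated and give no exact size. Probe set 10595148 was higher than in parental cells by 2.19 in Tw1KD cells and by 1.47 in the wild-type line. The third, 10587339, was dim in all lines, with a parental mean of 3.87, a Tw1KD mean of 4.70 and a wild-type mean of 4.45, and arrays that did not overlap with the parental ones.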

How the results depend on the processing

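Of the 1204 alternative values for single genes, 1164 counted as unchanged, 20 lost a call and 20 gained one, and none reversed a called direction. A tested difference counted as unchanged if it kept its side of the threshold and, where called, its direction. An S42D against S42A difference did so if it moved by less than the larger SD of those 2 lines. Some small uncalled differences changed sign, such as Gsto1 in the wild-type line against parental cells, from 0.018 to as low as -0.067. A further 386 alternative values were for the counts and for the Gstm5 difference between S42D and S42A. Of these, 379 stayed within 1.5 times the reported count or, for Gstm5, within the larger SD of the 2 lines. The 7 that moved were all counts of exporters against Tw1KD cells. They included 5 in the S42A line with array weights (3 reported), and 3 in the S42D line with quantile normalization or with only the 2 lines in the fit (5 reported). Leaving out 1 array at a time gave 3 to 5 exporters in the S42D line. The Gstm5 difference between S42D and S42A was 4.74 to 4.90 under other settings and 4.81 to 4.98 without 1 array. Besides the calls named above, Gsta4 in Tw1KD against parental cells gained a call under quantile normalization (adjusted p = 0.0338), without dim genes (0.0435), with an intensity trend (0.018) and without Tw1KD replicate 1 (0.0309) or 3 (0.0496). Gsta4 against Tw1KD cells gained one in the wild-type and S42D lines under quantile normalization (0.00185 and 0.015), with array weights (0.00108 and 0.00272) and without Tw1KD replicate 2 (0.00312 and 0.00938), and in the wild-type line with the trend (0.0249). Gstm4 gained one with only the 2 lines in the fit in S42D against Tw1KD cells (0.0343) and in S42A against wild-type cells (0.0219, and 0.00465 with array weights), as did Gsto1 in S42A against wild-type cells with array weights (0.0457). The filter on dim genes left Gstm6 without a value. Whether the replicate number pairs the samples was not tested, because only same-numbered arrays were compared. Those of Tw1KD and parental cells deviated with correlations of 0.01, 0.39 and 0.42, and those of S42D and S42A cells with -0.39, -0.08 and -0.22. When the replicate number entered as a replicate block, 6 members were called in Tw1KD against parental cells, as without it, and no call of a member changed. Low signal limits Gstm6, Gstk1, Gstt4, Abcc2, Abcg2 and the S42A levels of Gstm5 and 4933431E20Rik, and the causes of the moved counts were not tested.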

Other observations

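Both probe sets that name Gstp1 and its neighbour Gstp2 together had their lowest line mean in parental cells, like the Gstp1 probe set. Probe set 10464586 averaged 10.87 in parental, 11.06 in Tw1KD, 11.31 in wild-type, 11.34 in S42A and 11.29 in S42D cells. The second probe set of Gstm3, 10501218, did not follow the brighter one: its arrays lay between 6.17 and 6.79, while those of the brighter probe set lay between 6.75 and 8.05.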
